A study of Mus musculus with 6 samples.

Results

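The immediate early AP-1 and Egr factors described here are 10 genes, Fos, Fosb, Fosl1, Fosl2, Jun, Junb, Jund, Egr1, Egr2 and Ier2, followed in neural stem cells of young and old mice. Every probe set whose single platform symbol is one of these names was taken, which gave 15 of the 45101 probe sets on the array and 10 of 18193 named genes. Messenger RNA of 3 YoungNSC samples (mice of 6 weeks) and 3 OldNSC samples (mice of 9 months) was measured on 1 Affymetrix array each, all from the strain C57BL/6JRj and with no treatment or altered gene named in the labels. The labels give neither the brain region nor whether the cells were cultured or sorted, and do not say whether replicates came from separate animals, so a p-value here speaks to differences among these 6 samples alone, and their spread could be technical.

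AP-1 is a dimer of basic leucine zipper proteins, made of a Fos protein with a Jun protein or of a pair of Jun proteins, and it binds short palindromic sites in promoters and enhancers. The Egr proteins are zinc finger factors that bind GC-rich sites, and Ier2 is a small regulator found in the nucleus. Their genes are called immediate early because growth factors, calcium signals and stress switch them on within minutes, through the ERK and p38 kinases, the ternary complex factors with SRF, and CREB, without new protein being made first. In neural cells they are best known as readouts of growth factor exposure and of activity, and they also rise when tissue is handled or dissociated.

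The arrays resembled each other closely within an age, with correlations across kept probe sets of 0.995 for the old pairs and 0.979 to 0.993 for the young pairs, against 0.915 to 0.944 between ages. A probe set was kept for testing when 3 or more arrays read it above log2 4, which left 19858. The 18 hybridisation control probe sets, which read RNA added in fixed amount, all had their 3 old values under their 3 young values, with a mean difference of -0.96 (log2, two-sided exact permutation p = 0.1, which is the floor for 3 against 3). The neural stem cell genes Sox2, Nes and Fabp7 were bright on all 6 arrays, for example Sox2 at 13.44 ± 0.076 in young and 13.30 ± 0.043 in old cells (log2, SD, n = 3). Of 8 markers of microglia and macrophages 7 stayed at the lowest value on every array, and 0 of the 8 passed the filter.

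Every immediate early factor of this family that could be tested was lower in old cells. Of the 15 probe sets 8 passed the filter, covering Fos, Fosl2, Jun, Jund, Egr1 and Egr2, and all 8 fell by limma (adjusted p = 0.000143 to 0.0270), while 0 rose, also at an unadjusted p under 0.05. Over all kept probe sets 16.5% fell and 20.1% rose, and among those with a mean above log2 9, where all 8 lie, 17.5% fell. The old arrays lay below the young arrays without overlap for each of the 8, against 25.9% of kept probe sets. The change ran from -1.59 to -0.27 on the log2 scale with a median of -0.90, against a median of 0.01 over all kept probe sets. Of all kept probe sets 4.55% fell by more than log2 1, and 4 of these 8 did so.

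**Figure D1:**
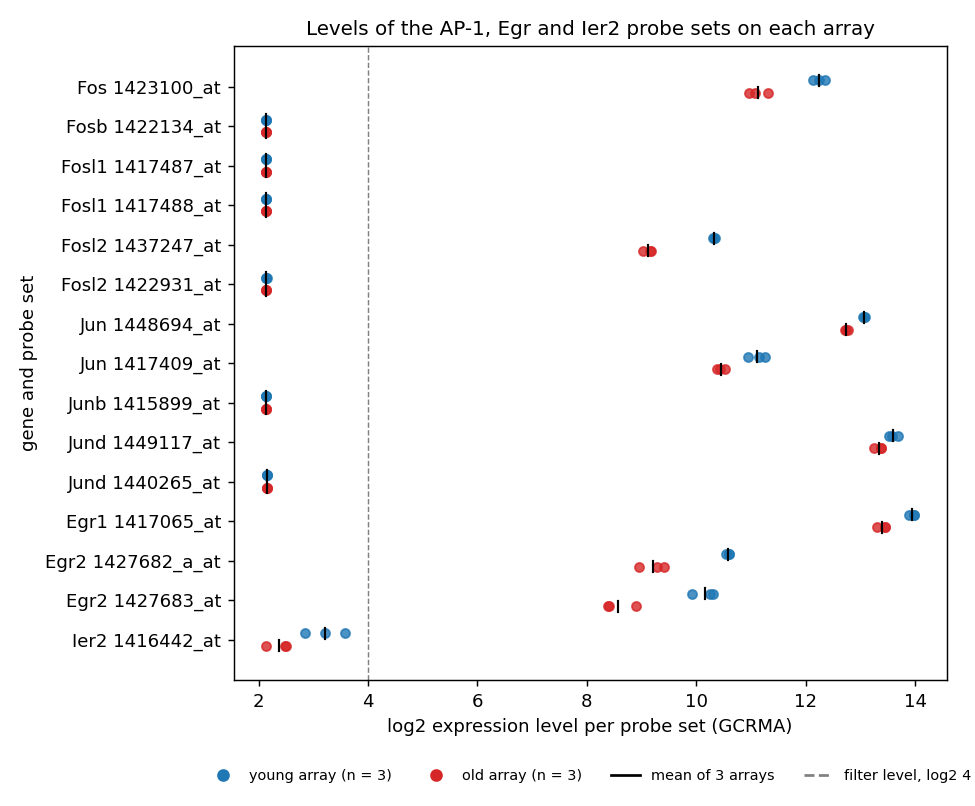
Levels of the 15 probe sets of the 10 genes on each array (x axis, log2 expression, GCRMA), with blue points for the 3 young arrays, red points for the 3 old arrays, black ticks for the means of 3 arrays and a dashed line at the filter level of log2 4. The 8 probe sets right of the line have all red points left of all blue points, and the 7 probe sets left of it lie at or near 2.14 except Ier2.

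Fos is the founding partner in AP-1, with a short-lived messenger and protein, and needs a Jun protein to bind DNA. Its probe set, 1423100_at, read 12.25, 12.13 and 12.35 on the young arrays and 10.97, 11.08 and 11.32 on the old arrays (log2). The groups stood 0.82 apart at their nearest arrays, and the old arrays varied somewhat more than the young ones. Fos thus fell by 1.12 (95% interval -1.40 to -0.85, 2.18-fold, limma adjusted p = 0.00143). Only 4.83% of kept probe sets had a change this low or lower.

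The stretch of the Fos promoter just before the transcription start is shown because it holds the elements through which cyclic AMP and calcium signals reach the gene in mammalian cells. It covers chr12:85473740-85473889 of GRCm38.p6, plus strand, from RefSeq, and ends at the base before the start. Capitals mark the core of the cyclic AMP response element, TGACG, searched on both strands.
Fos: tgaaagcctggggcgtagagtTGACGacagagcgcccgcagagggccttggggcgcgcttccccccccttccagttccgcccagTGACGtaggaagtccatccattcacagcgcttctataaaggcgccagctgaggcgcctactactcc
The core stands 129 and 66 bases before the start. Over 32851 RefSeq promoter windows, 13.3% hold it on either strand in the last 150 bases before the start.

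Fosl2, also called Fra-2, is a Fos relative that lasts longer than Fos after a stimulus and lacks its strong activation domain. At probe set 1437247_at it read 10.31, 10.32 and 10.35 on the young arrays and 9.02, 9.18 and 9.15 on the old arrays (log2). Young arrays were almost identical, and each old array lay more than 1 log2 unit lower. Fosl2 fell by 1.21 (95% interval -1.36 to -1.07, 2.32-fold, limma adjusted p = 0.000143). Its other probe set, 1422931_at, stayed between 2.14 and 2.15 on all 6 arrays and was not tested. Within an array the change of Fos differed from that of Fosl2 by 0.09, with overlapping groups (exact permutation p = 0.5, two-sided, n = 3 against 3).

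Fosb and Fosl1, also called Fra-1, complete the Fos family. Fosb, whose splice form ΔFosB builds up in neurons under repeated stimulation, was listed at 2.14 on all 6 arrays. Both probe sets of Fosl1, a factor of migrating and transformed cells, were listed at 2.14 on every array as well. GCRMA places dim probe sets at or near this shared lowest value, so neither a level nor a difference can be read from them.

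Jun is the strongest activator of the Jun proteins and is switched on by the JNK kinases, and it can drive its own gene. Its brighter probe set, 1448694_at, read 13.08, 13.06 and 13.04 on the young arrays and 12.74, 12.78 and 12.71 on the old arrays (log2). The other, 1417409_at, read 11.14, 10.95 and 11.26 against 10.44, 10.53 and 10.37. At both, every old array was below every young array. The brighter probe set fell by 0.32 (95% interval -0.43 to -0.21, limma adjusted p = 0.00434) and the other by 0.67 (95% interval -0.91 to -0.44, limma adjusted p = 0.00450), so the size of the change depended on the probe set and its direction did not.

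Jund, the Jun protein made steadily in resting cells, had the smallest change. Probe set 1449117_at read 13.58, 13.68 and 13.53 on the young arrays and 13.26, 13.37 and 13.37 on the old arrays (log2), a gap of 0.15 between the nearest arrays. It fell by 0.27 (95% interval -0.43 to -0.10, limma adjusted p = 0.0270). This call was lost without young replicates 1 or 2 (adjusted p = 0.0596 and 0.0535) and without old replicates 1, 2 or 3 (adjusted p = 0.0797, 0.0668 and 0.0625), with the replicate number as a block (adjusted p = 0.0619) and with no filter (adjusted p = 0.0654). Its other probe set, 1440265_at, stayed at 2.15 on all arrays. Within an array the change of Jun at its brighter probe set differed from that of Jund by -0.05, with overlapping groups (exact permutation p = 0.5, two-sided, n = 3 against 3). The dimmer Jun probe set, which fell by 0.67, was not compared with Jund, so this small difference holds for the brighter probe set only. Junb, which opposes Jun on many promoters, was listed at 2.14 on every array and was not tested.

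Egr1, also called Zif268 or Krox-24, is an Egr factor switched on by ERK signalling. Its probe set, 1417065_at, read 13.90, 13.98 and 13.97 on the young arrays and 13.46, 13.30 and 13.45 on the old arrays (log2). The groups stood 0.44 apart, and the spread within each age was far smaller. Egr1 fell by 0.55 (95% interval -0.71 to -0.39, 1.46-fold, limma adjusted p = 0.00244).

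Egr2, or Krox-20, patterns the hindbrain and is needed for myelination by Schwann cells. Probe set 1427682_a_at read 10.61, 10.54 and 10.61 on the young arrays and 9.41, 9.28 and 8.96 on the old arrays (log2). Probe set 1427683_at read 10.24, 9.93 and 10.31 against 8.90, 8.41 and 8.39. Both separated the ages by more than 1 log2 unit, and the old arrays spread more widely than the young ones at both. Egr2 fell by 1.37 (95% interval -1.68 to -1.06, 2.58-fold, limma adjusted p = 0.00105) and by 1.59 (95% interval -2.04 to -1.14, 3.02-fold, limma adjusted p = 0.00222). Within an array the change of Egr1 differed from that of Egr2 by 0.82, and the old arrays lay apart from the young ones in this difference (exact permutation p = 0.1, the smallest possible here, and 0.3 adjusted over the 3 pairs compared). The other 3 pairs planned, Fos with Fosb, Fos with Fosl1 and Jun with Junb, each held a gene without a kept probe set and were not compared.

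The Egr2 promoter is shown at its matches to the CArG box, the site bound by SRF. Each stretch has 30 bases from RefSeq, GRCm38.p6, plus strand, with the box in capitals, the first at chr10:67537484-67537513 and the second at chr10:67537787-67537816.
Egr2 upstream box: cggatcttctCCTTTTTTGGaaagtctcgg
Egr2 downstream box: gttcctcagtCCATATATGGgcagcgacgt
Each box begins 72 bases before an annotated Egr2 start. Of all 32851 windows 1.63% hold a CArG box on either strand. Promoter windows were found for 7 of the 10 genes, and those without one were Fosl1, Egr1 and Ier2. In these windows, from 250 bases before the start to 50 after it, Fosb and Junb held TGACG once each, 3 of the 5 overlapping or neighbouring windows of Egr2 held it on both strands (20.8% of all windows hold it), and Fosb and Fosl2 held an Egr site, GCGNGGGCG, which 5.55% of windows hold. The AP-1 site TGANTCA (7.81% of windows) and the full cyclic AMP response element TGACGTCA (1.79% of windows) were in none of the windows of the 7 genes, and the windows of Jun and Jund held none of the 5 motifs. The well-studied SRF site of Fos lies upstream of this window.

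Ier2 passed on no array. It read 2.84, 3.21 and 3.57 on the young arrays and 2.48, 2.14 and 2.51 on the old arrays (log2). The groups did not overlap, but all 6 values lie under log2 4, so Ier2 was not tested and no fold is given.

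**Figure D2:**
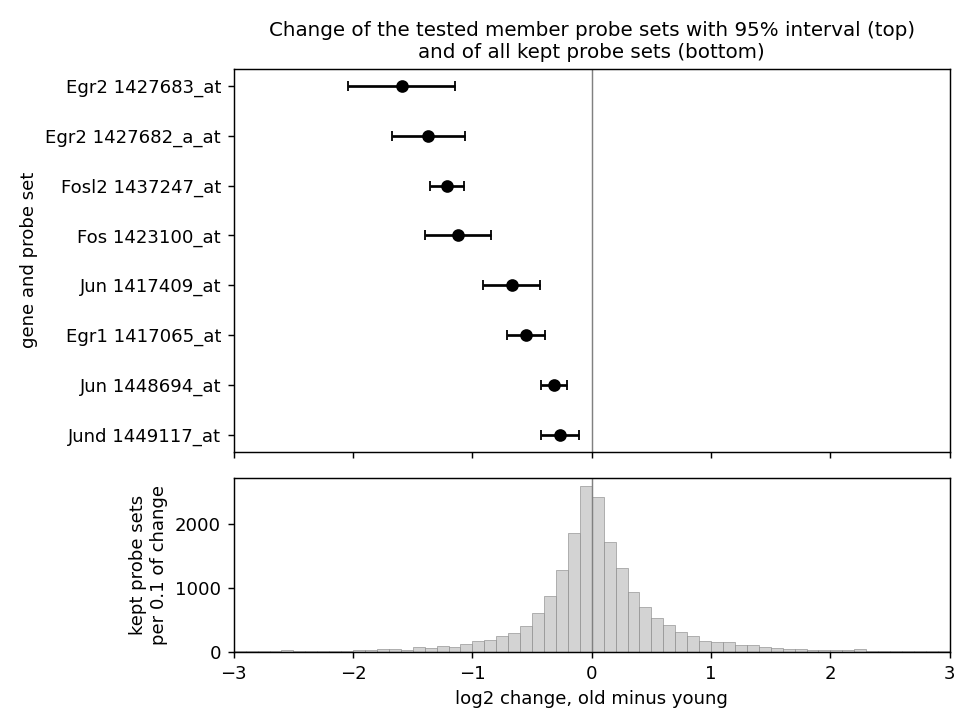
Log2 change, old minus young, of the 8 kept probe sets of Fos, Fosl2, Jun, Jund, Egr1 and Egr2 (top, points with 95% intervals from limma), above the changes of all kept probe sets (bottom, bars 0.1 wide, y axis in probe sets, with 471 beyond the plotted range of 3 not drawn). All 8 intervals lie below 0, from Jund with -0.27 nearest to it to the dimmer Egr2 probe set with -1.59.

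Around these factors 109 related genes in 7 lists were examined, of which 97 had a probe set with a single symbol and 75 passed the filter. A listed gene stands for its brightest kept probe set. Of the 75 genes 24 fell and 15 rose by limma, against 18.5% falling and 22.0% rising among all 10050 named genes. On leaving out each array in turn, 19 of the 24 and 11 of the 15 calls were held in all 6 fits.

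Most other immediate early transcription regulators that could be tested were lower in old cells. Of 10 tested genes 8 fell and 0 rose by limma (1 higher at an unadjusted p under 0.05), with a median log2 change of -0.54, against 0.01 over all named genes. Of all named genes 18.5% fell and 22.0% rose. Nr4a1 passed the filter through the young arrays alone, and without it 7 of 9 fell with a median of -0.42. All 8 calls held on leaving out each array. Egr3, an Egr relative that Egr1 and calcium signals switch on in neurons and lymphocytes, read 7.46, 7.67 and 7.79 on the young arrays and 4.29, 4.83 and 3.05 on the old arrays (log2). It fell by 3.59 (95% interval -4.74 to -2.43, limma adjusted p = 0.00339), and its old arrays straddle log2 4, so the size of this change is uncertain.

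Of the orphan nuclear receptors of the Nr4a family, Nr4a3 read 8.48, 8.97 and 8.69 in young and 6.82, 5.02 and 5.85 in old cells (log2). It fell by 2.82 (limma adjusted p = 0.00750). Nr4a1, with no old array above the filter level, read 4.84, 5.92 and 5.15 in young cells and 2.32, 2.14 and 2.14 in old cells (log2), which is at least 2.47-fold lower when log2 4 stands in for the old level (limma adjusted p = 0.00109). That p-value is uncertain, since Nr4a1 was kept through its young arrays alone and spread near the lowest value is compressed. Nr4a2 did not pass, with a log2 change of 0.16 (limma adjusted p = 0.213), and was near 10 on all arrays. Whether Nr4a2 differs from its relatives was not tested.

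Maff, a small Maf protein that pairs with other leucine zipper factors, read 7.83, 7.32 and 7.43 in young and 5.34, 5.70 and 5.73 in old cells and fell by 1.94 (limma adjusted p = 0.00111). Smaller falls at the brightest probe set were those of Ier5, related to Ier2 (log2 change -0.65), Myc (-0.42), the TGF-beta-induced Klf10 (-0.33) and Klf6 (-0.27). The size for Klf6 depended on the probe set, since its other kept probe sets changed by -0.82 to -0.34 and all passed. Klf4, a factor of pluripotency and growth arrest, went the other way without passing at its brightest probe set (log2 change 0.56, limma adjusted p = 0.0662), while its dimmer probe set rose by 1.78 (limma adjusted p = 0.00338). Without young replicate 3 the brightest probe set passed as well (log2 change 0.76, limma adjusted p = 0.00855). The other 6 genes of the list, Egr4, Klf2, Npas4, Ier3, Atf3 and Csrnp1, lay under the filter.

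**Figure D3:**
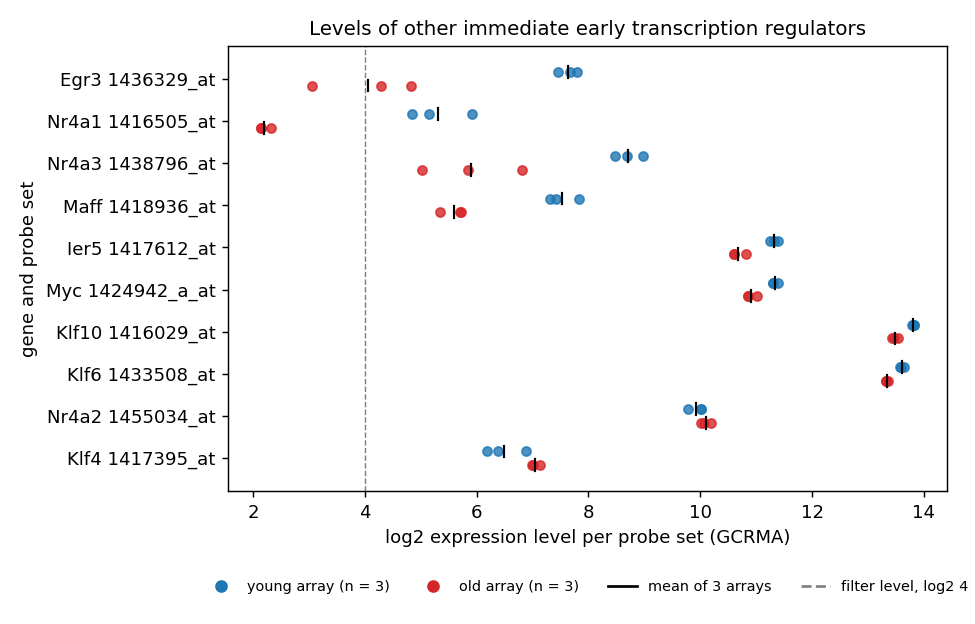
Levels of the 10 tested immediate early regulators outside the 10 factors on each array (x axis, log2 expression, GCRMA), with blue points for the 3 young arrays, red points for the 3 old arrays, black ticks for means of 3 and a dashed line at log2 4. Red points lie left of blue points from Egr3 to Klf6, and lie right of them for Klf4.

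Effectors and feedback genes of the early response split evenly. Of 18 tested genes 5 fell and 5 rose by limma (27.8% each, against 18.5% and 22.0% of all named genes), with a median log2 change of -0.08. The genes that fell were the growth arrest gene Gadd45g (log2 change -1.48, limma adjusted p = 0.000467) and its relative Gadd45b (-1.17), the antiproliferative Btg2 (-1.55), the matrix protein gene Ccn1 (-0.97) and Dusp1, a nuclear phosphatase of the MAP kinases, which read 13.00, 12.91 and 12.96 in young and 12.50, 12.47 and 12.43 in old cells. The phosphatase Dusp4, which inactivates ERK in the nucleus, did the opposite, with 8.62, 8.18 and 8.88 in young and 11.16, 11.07 and 11.54 in old cells (log2). Dusp4 rose by 2.70 (95% interval 2.15 to 3.24, limma adjusted p = 0.000761). Dusp5, a nuclear phosphatase specific to ERK, rose by 0.56 (limma adjusted p = 0.00381), and Gadd45a rose by 0.72, while Dusp6, the cytoplasmic ERK phosphatase, did not pass (log2 change 0.13, limma adjusted p = 0.103). The rises of Socs3 (0.58) and Plk2 (0.50) were each lost without 1 array, Socs3 without old replicates 2 or 3 (limma adjusted p = 0.0616 and 0.0584) and Plk2 without old replicates 1 or 3 (limma adjusted p = 0.0530 and 0.0570). Without old replicate 3 the count that rose was thus 3.

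Of 6 tested genes for Egr corepressors and for turnover of Jun or Fos, 2 fell and 1 rose by limma (33.3% and 16.7%). Among all named genes 18.5% fell and 22.0% rose, and the median log2 change of these 6 was 0.01. The 2 that fell were the corepressors that bind Egr proteins, and Egr1 itself is known to switch on Nab2 in mammalian cells. Nab1 read 10.80, 10.75 and 10.61 in young and 10.16, 10.01 and 9.88 in old cells (log2) and fell by 0.70 (limma adjusted p = 0.00368). Nab2 read 9.73, 9.61 and 9.85 in young and 9.24, 9.03 and 8.77 in old cells and fell by 0.72 (limma adjusted p = 0.0118, and 0.0556 with no filter). Of the 4 ubiquitin ligase genes that act on Jun or Fos family proteins, 1 passed, Fbxw7 with a log2 change of 0.17, and it no longer passed when any single array was left out (limma adjusted p = 0.0660 to 0.124).

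Among the kinases and factors upstream, shares of calls lay near those of all named genes. In the Ras, ERK and SRF route 3 of 12 tested genes fell and 2 rose by limma (25.0% and 16.7%, against 18.5% and 22.0% of all named genes), with a median log2 change of -0.05. The small GTPase Nras rose by 0.53 (limma adjusted p = 0.00269), whereas the ERK-activated kinase Rps6ka3 fell by 0.47 (limma adjusted p = 0.00930) and Mrtfa, an SRF coactivator driven by actin, fell by 0.35 (limma adjusted p = 0.0108, and 0.0638 with the trend and robust options). The calls of Braf, which was lower, and Elk1, a ternary complex factor, which was higher, were lost without some arrays, Braf without any but young replicate 2 (limma adjusted p = 0.0529 to 0.124) and Elk1 without any of the old arrays (limma adjusted p = 0.0537 to 0.0579), which left 1 higher gene. Srf had a log2 change of 0.12 with overlapping groups (95% interval -0.17 to 0.41, limma adjusted p = 0.455). The remaining 7 genes of that list were not analysed here.

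In the JNK and p38 route 3 of 12 genes fell and 2 rose by limma (again 25.0% and 16.7%), with a median log2 change of 0.03. Mapk12, p38 gamma, read 7.88, 7.55 and 8.18 in young and 4.40, 4.90 and 4.75 in old cells (log2) and fell by 3.19 (limma adjusted p = 0.000363). Map3k1, a kinase upstream of JNK, fell by 1.10 (limma adjusted p = 0.000683). Map3k5, also called Ask1, rose by 0.88 (limma adjusted p = 0.00177) and Mapk10, the neural JNK, by 0.77 (limma adjusted p = 0.00549). The broadly expressed JNK genes Mapk8 and Mapk9 had log2 changes of 0.06 each and did not pass (limma adjusted p = 0.571 and 0.541). The third gene that fell, Mapk14 with -0.24, lost its call without young replicates 1 or 3 (limma adjusted p = 0.0538 and 0.0562) and without old replicates 2 or 3 (limma adjusted p = 0.0663 and 0.0567).

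Leucine zipper relatives and partners of AP-1 proteins were mixed, with 3 of 11 falling and 3 rising by limma and a median log2 change of -0.01. These shares are 27.3% each, against 18.5% falling and 22.0% rising among all named genes. Maf rose by 0.88 at its brightest probe set (12.24, 12.13 and 12.04 in young against 12.94, 13.11 and 13.01 in old cells, limma adjusted p = 0.00101) and by 1.66 to 3.94 at its other 4 kept probe sets. Atf7 rose by 0.86 and Atf6 by 0.44 at its brightest probe set. The other kept probe sets of Atf6 rose by 0.90 and 1.46 (limma adjusted p = 0.00362 and 0.0129). Besides Maff, the calls of Crem (-0.39) and Atf4 (-0.16) were the 2 others that fell, and without old replicates 1 or 3 neither passed (limma adjusted p = 0.0607 and 0.0568 for Crem, 0.129 and 0.0973 for Atf4), which left 1. Atf4 also failed on leaving out any other array (limma adjusted p = 0.0537 to 0.112).

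Few genes that textbooks give as AP-1 targets could be tested. Of 7 tested genes 2 rose and 1 fell by limma (28.6% and 14.3%, near the 22.0% and 18.5% of all named genes), with a median log2 change of 0.20, and 7 others with a probe set were under the filter. Timp1 passed the filter through the old arrays alone, and without it 1 of 6 rose and 1 fell with a median of 0.04. Timp1, an inhibitor of matrix metalloproteinases, read 2.68, 2.38 and 2.86 in young and 11.70, 12.02 and 11.87 in old cells (log2). It was at least 233-fold higher in old cells when log2 4 stands in for the young level (limma adjusted p = 5.01e-06). Here too the p-value is uncertain, since Timp1 was kept through its old arrays alone and its young values are dim. The chemokine Ccl2 read 7.92, 7.56 and 7.81 in young and 9.32, 9.31 and 9.30 in old cells (log2) and rose by 1.55 (limma adjusted p = 0.000366). The cyclin gene Ccnd1 did not pass (log2 change -0.12, limma adjusted p = 0.123). Vegfa, with a log2 change of -0.84, was the 1 gene that fell, and it did not pass without young replicates 2 or 3 (limma adjusted p = 0.0631 and 0.0821) or old replicate 3 (limma adjusted p = 0.0622), which left 0.

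**Figure D4:**
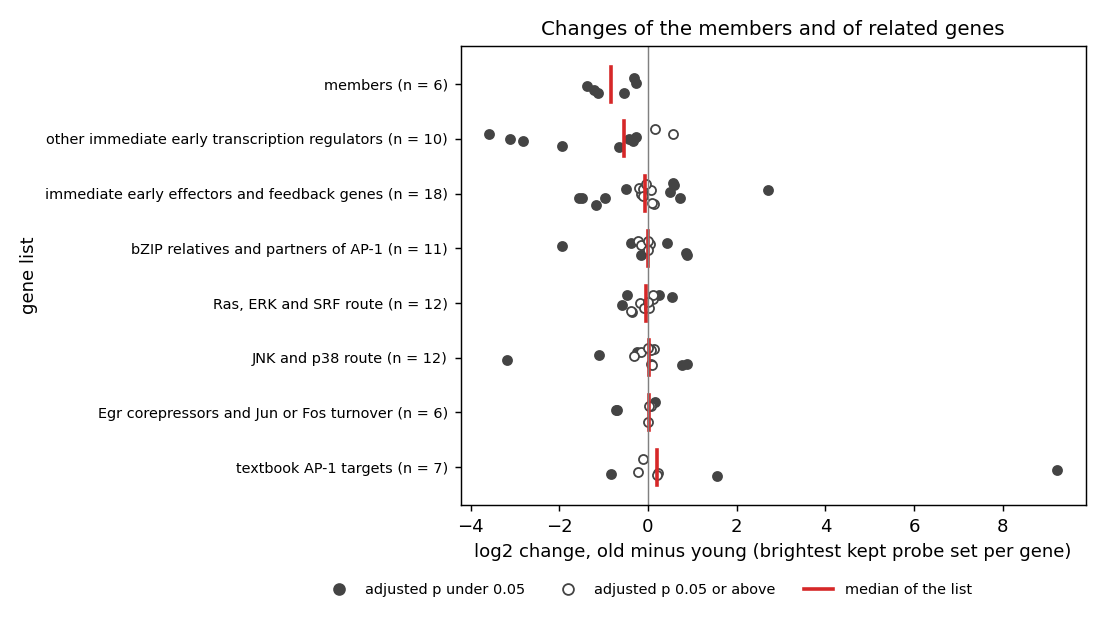
Log2 change, old minus young (x axis), of the 6 tested AP-1 and Egr genes (labelled members) and of the tested genes of 7 related lists, 1 point per gene by its brightest kept probe set, filled where the limma adjusted p is under 0.05, with a red line at each list's median. The members and the other immediate early transcription regulators have medians of -0.84 and -0.54, and the medians of the other 6 lists lie between -0.08 and 0.20.

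As a description of how common such patterns are, values were centred on each probe set's mean and compared over the 6 arrays by the root mean square difference. The probe sets nearest to Fos were 1 of Sox4 (0.06), 1 of Liph (0.06) and 1 of Slc6a6 (0.07), and 57 probe sets with a single symbol lay within 0.15. Those nearest to Egr1 belonged to Midn, Wasf1 and Coil (each 0.04), with 1043 probe sets within 0.15. Junb and Fosl1, for which the same was planned, had no kept probe set.

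Several markers of other cell kinds also differed between the ages on the same arrays, some lower and some higher in old cells. For comparison, 25.9% of all kept probe sets lay below young on every old array, and the share lying above was not counted. Of 4 neuroblast markers 2 passed the filter, Dlx2 and Sox11, and both were below young on every old array. The summed level of the 4 was 14.40 to 14.42 in young and 13.89 to 13.96 in old cells (log2), a sum set by Sox11. Dlx2 fell by 3.71 (limma adjusted p = 0.000102) and Sox11 by 0.33 (limma adjusted p = 0.00408). Of 5 astrocyte markers 4 were above young on every old array, and these 4 also rose by limma, against 22.0% of all named genes. The fifth, Gfap, overlapped (log2 change 0.31, limma adjusted p = 0.446). Summed levels of the 5 were 12.68 to 12.84 in young and 14.08 to 14.14 in old cells, a sum set by Gja1. The 6 neuron markers summed to 13.77 to 13.82 in young and 13.81 to 13.86 in old cells, a sum set by Map2, and Rbfox3 was at 2.14 on all 6 arrays. Of the 4 neuron markers that passed the filter Map2 was above young on every old array, while Tubb3, Snap25 and Syp were below. Map2 and Syp had no limma call (adjusted p = 0.0857 and 0.0550). Tubb3 read 9.62, 9.30 and 9.58 in young and 4.06, 3.46 and 3.98 in old cells (log2, limma adjusted p = 4.64e-05). Of 9 pericyte and fibroblast markers 2 passed the filter, Cspg4 and Acta2, and both were below young on every old array. Summed levels of the 9 were 8.64 to 8.82 in young and 7.07 to 7.34 in old cells, with Cspg4 as the largest part. All others of this list lay under the filter, with Pdgfrb, Dcn and Lum at 2.14 throughout, so the sum does not describe them. Of the 7 neural stem cell markers 6 passed the filter, and 4 of these, Sox2, Sox9, Nes and Fabp7, were below young on every old array. Sox2 and Fabp7 had no limma call (adjusted p = 0.122 and 0.0557). Summed levels of the 7 were 16.63 to 16.66 in young and 16.53 to 16.56 in old cells. The oligodendrocyte lineage markers, 6 of 7 of which had a probe set, summed to 14.13 to 14.23 in young and 14.19 to 14.30 in old cells, a sum set by Olig1 and Olig2. Pdgfra, of the same list, was below young on every old array with a log2 change of -1.44 (limma adjusted p = 0.00854). The 3′ minus 5′ difference of the actin control probe sets, a sign of RNA quality, was 0.57 to 0.65 in young and 0.67 to 0.73 in old cells (log2, two-sided exact permutation p = 0.1). That of the Gapdh control probe sets overlapped, with 0.32 to 0.35 in young and 0.32 to 0.41 in old cells (log2, two-sided exact permutation p = 0.3). All 5 endothelial markers lay under the filter. The part of these cell kinds, of RNA quality and of the lower hybridisation controls in the falls of the immediate early genes was not tested, and in such bulk samples fewer cells of a type and less RNA per cell cannot be told apart.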

How the data were processed

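Total RNA of 6 samples, extracted with a NucleoSpin kit and labelled with biotin by a NuGEN module per the labels' protocols, was measured on 1 array each. The authors deposited 1 log2 level for each probe set and array, and made them with GCRMA, per the submitters' processing notes. Its version and the chip file were not given in the sources used here. That the scale is log2 was inferred from the range of the values, whose shared minimum is 2.14. GCRMA compresses dim probe sets to that value, so spread and change near it are understated or uncertain. The number of arrays limits the precision.

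Control probe sets (64) were left out. Symbols came from the platform annotation, with 34945 probe sets having 1 symbol. Probe sets above log2 4 on at least 3 arrays (19858) were fitted with limma 3.58.1 in R 4.3.3 (lmFit, eBayes, two-sided, 1.47 prior degrees of freedom), old against young, with Benjamini-Hochberg adjustment over all of them and a threshold of 0.05. The fit was tested on simulated data, with no outcome reported here. Figures used matplotlib 3.10.9 in Python 3.11.15. Promoter sequences are RefSeq's.

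Genes were named by rule: all 10 factors with every probe set, and up to 8 of each list by smallest p, plus Srf, Nab1, Nab2 and Myc; Klf4 and Nr4a2, Mapk8 and Mapk9, Dusp6 and Ccnd1, and markers, were named with their values seen where they fall outside it. The members and lists were chosen with earlier results of these data known. Alternatives were other filters, quantile normalization, median centring, array weights, the replicate block, trend and robust options, thresholds of 0.01 and 0.1, mean probe sets, and leaving out each array.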

Additional observations from a re-analysis of the deposited data

How the results depend on the processing

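The 8 falling probe sets of the immediate early factors kept their direction under all 16 alternatives run, and 7 or 8 of them passed under each, Jund being the 1 lost where 7 did. None rose under any of these by limma. Of the listed genes 17 to 30 fell and 11 to 17 rose over the 17 alternatives run, within 1.5 times the reported 24 and 15. On leaving out 1 array, 7 to 8 probe sets of the factors fell, as did 19 to 24 listed genes, and 11 to 15 listed genes rose. Whether same-numbered arrays of the 2 ages belong together is not known. Their deviations correlated at -0.16, -0.11 and 0.16, and those of differently numbered arrays at -0.22 to 0.25. With 3 arrays per age these values cannot show whether the numbers mark pairs. With the replicate number as a block, 7 factor probe sets fell, and 22 listed genes fell and 12 rose. The difference between the changes of Fos and Fosl2 was 0.09 as reported and -0.51 when all probe sets of a gene were averaged, because that mean includes the Fosl2 probe set at the lowest value; leaving out 1 array gave 0.01 to 0.14. For Jun and Jund it lay between -0.10 and -0.01 on leaving out 1 array, and for Egr1 and Egr2 between 0.67 and 0.90. The Jun and Jund difference also depends on averaging. That mean adds a Jun probe set with a change of -0.67 and a Jund probe set that stayed at 2.15. Quantile normalization and median centring gave median changes over all kept probe sets of 0.007 and -0.002. Both align the arrays, so medians near 0 were set beforehand and say nothing about robustness. Signal over background is what limits Fosb, Fosl1, Junb and Ier2.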
